A study of Homo sapiens with 6 samples.

Results

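The cytosolic ribosomal protein genes were examined in Huh7 cells, a human hepatocellular carcinoma line, with and without a knockout of UBE2S. They were taken by name, as every gene whose symbol starts with RPL or RPS and goes on with the numbering of the ribosomal proteins of the large and small subunit, the stalk proteins and RPSA included. This gave 85 of the 20289 genes in the table, of which 83 were among the 13265 genes with enough counts to be tested. The rule used no measured value. It took 31 small subunit proteins, 46 large subunit proteins and 8 paralogs, which are genes for a protein closely related to that of another member. FAU and RACK1, which encode ribosomal proteins under other names, are described apart.

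RNA was measured by sequencing of poly(A) RNA in 3 libraries of UBE2S knockout Huh7 cells, called KO here, and 3 libraries of wild-type Huh7 cells, called WT. The study set out to find what acts downstream of UBE2S, an E2 enzyme that lengthens ubiquitin chains on targets of the anaphase-promoting complex. The labels do not say how the knockout was made or whether the KO libraries come from 1 clone or several. They also do not say whether replicates were separate cultures, so a p-value measures the spread between these libraries, which may be technical.

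Ribosomal proteins are made in nearly equal numbers and assembled with ribosomal RNA in the nucleolus into the small subunit, which reads the mRNA, and the large subunit, which joins amino acids. Their mRNAs are among the most abundant of a growing cell and carry at their very start a run of pyrimidines, the 5′ terminal oligopyrimidine tract or TOP, through which mTOR and LARP1 control their translation. In liver cells, as elsewhere, their supply follows growth, and free RPL5 and RPL11 bind the ubiquitin ligase MDM2.

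The starts of the transcripts are shown for several of the members with large differences, because the TOP tract is the sequence that members share. Among paralog pairs, RPS27 with RPS27L and RPL22 with RPL22L1 are shown. Each line gives 15 bases before and 15 bases from the RefSeq start on GRCh38.p14, on the gene's own strand, and capitals mark the pyrimidine run that begins with C at the start. The first 8 are genes that were lower in KO, RPS27 shown beside its paralog RPS27L.
RPL14: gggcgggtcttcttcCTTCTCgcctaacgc
RPL36: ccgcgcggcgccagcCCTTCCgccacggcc
RPL11: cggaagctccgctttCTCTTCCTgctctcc
RPS16: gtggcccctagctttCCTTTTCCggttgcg
RPL7A: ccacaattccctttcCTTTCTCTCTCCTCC
RPS15: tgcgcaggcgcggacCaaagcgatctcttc
RPS27: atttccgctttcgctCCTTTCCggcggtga
RPS27L: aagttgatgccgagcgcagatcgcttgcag
The next 5 are RPL22, its paralog and 3 genes that were higher in KO.
RPL22: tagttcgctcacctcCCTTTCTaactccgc
RPL22L1: cgcggccgtagcttcCTCTCTgctctcgcg
RPS12: gcgtgcggatgaggcCTCTTTCCCTgccgc
RPS3A: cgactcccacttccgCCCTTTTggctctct
RPLP1: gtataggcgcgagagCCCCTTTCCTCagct
They lie at chr3:40457324-40457353 (RPL14), chr19:5690280-5690309 (RPL36), chr1:23691791-23691820 (RPL11, the second of its 2 annotated starts), chr19:39435935-39435964 (RPS16, minus strand) and chr9:133348203-133348232 (RPL7A). The others lie at chr19:1438381-1438410 (RPS15), chr1:153990747-153990776 (RPS27), chr15:63157463-63157492 (RPS27L, minus strand), chr1:6199581-6199610 (RPL22, minus strand) and chr3:170870181-170870210 (RPL22L1, minus strand). RPS12 is at chr6:132814554-132814583, RPS3A at chr4:151099613-151099642 and RPLP1 at chr15:69452803-69452832. Strands not named are plus.

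A TOP start was counted where the annotated start was C and at least 4 further pyrimidines (C or T) followed, read on the transcript's strand only. Of the 68 members with a promoter entry, 47 (69.1%) had such a start at one or more of their entries, against 1404 of 27305 genes of the whole table of promoters (5.14%). The sequences above show the contrast within a pair: RPS27 starts with CCTTTCC, and its paralog RPS27L has no C at its start. RPS15 has a C followed by a purine there. Among tested members, 25 of 47 with a TOP start were lower in KO and 5 higher, with a median log2 fold change of -0.12. Without a TOP start 6 of 20 were lower and 3 higher, with a median of -0.06, and among the 16 with no promoter entry 7 were lower and 3 higher. Over all genes tested 30.7% were lower and 29.4% higher, and the difference between members with and without a TOP start was not tested. The starts are annotated positions and not measured ones, and a match is a description of these letters.

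Library totals ran from 21840499 to 25840104 estimated counts in KO and from 23300336 to 27910396 in WT. UBE2S itself averaged 45.7 ± 1.70 CPM (counts scaled to a common library total by the TMM method) in KO and 224 ± 9.37 CPM in WT (SD, n = 3 each), a log2 fold change of -2.29. The 7 hepatocyte markers, ALB and AFP included, summed to between 26415 and 26930 CPM in KO and between 29909 and 30434 CPM in WT. Of these 6 were lower, and APOA1 was higher (811 CPM in KO and 615 CPM in WT). The 4 immune markers summed to between 179 and 182 CPM in KO and between 290 and 313 CPM in WT, mostly LYZ, and all 3 tested (LYZ, CD68 and CD14) were lower, with PTPRC at 0.028 CPM in KO and 0.14 CPM in WT. Of the 4 fibroblast markers 2 were lower and 2 higher, COL1A2 at 0.338 CPM in KO and 139 CPM in WT. PECAM1, the one endothelial marker of 4 tested, was lower (2.06 CPM in KO and 5.72 CPM in WT), KDR was at 0 in all 6 libraries, and 2 of the 3 cholangiocyte markers tested were lower. The part of these markers in the results was not tested. WT replicate 1 stood apart: its chi-square per degree of freedom over genes was 8.41 and 10.9 against WT replicates 2 and 3, while those 2 differed by 1.80 and the KO libraries by 1.40 to 1.55. Values without WT replicate 1 are therefore given below.

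Most ribosomal protein mRNAs differed little between KO and WT, and those that differed were more often lower in KO. By edgeR's quasi-likelihood test at an adjusted p of 0.05, 38 of the 83 tested members fell (45.8%), 11 rose (13.3%) and 34 were not called. The test called 60.1% of all 13265 genes, 30.7% lower and 29.4% higher. The median log2 fold change was -0.08 over the members (quartiles -0.23 and 0.03) and -0.00 over all genes (quartiles -0.24 and 0.22), and 78 of the 83 stayed within 0.5 of 0. Of the members 39 had all KO libraries below all WT libraries, a pattern of 33.5% of all genes, and 12 had all KO libraries above, a pattern of 32.3% of all genes. The other 32 tested members had overlapping groups. When a shift shared with chromosome neighbours was taken off, as described further on, 33 of the 38 decreases and 2 of the 11 increases were still called in the same direction. In that fit 27.8% of all genes were lower and 26.8% higher. The share of all called genes that kept their call was not worked out. Together the 85 genes took 3.16%, 3.20% and 3.21% of the counts in the KO libraries, against 3.28%, 3.47% and 3.39% in the WT libraries, so every KO library was under every WT library and the means differed by -0.188 percentage points. The plot of the members' log2 fold changes shows how they spread.

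**Figure D1:**
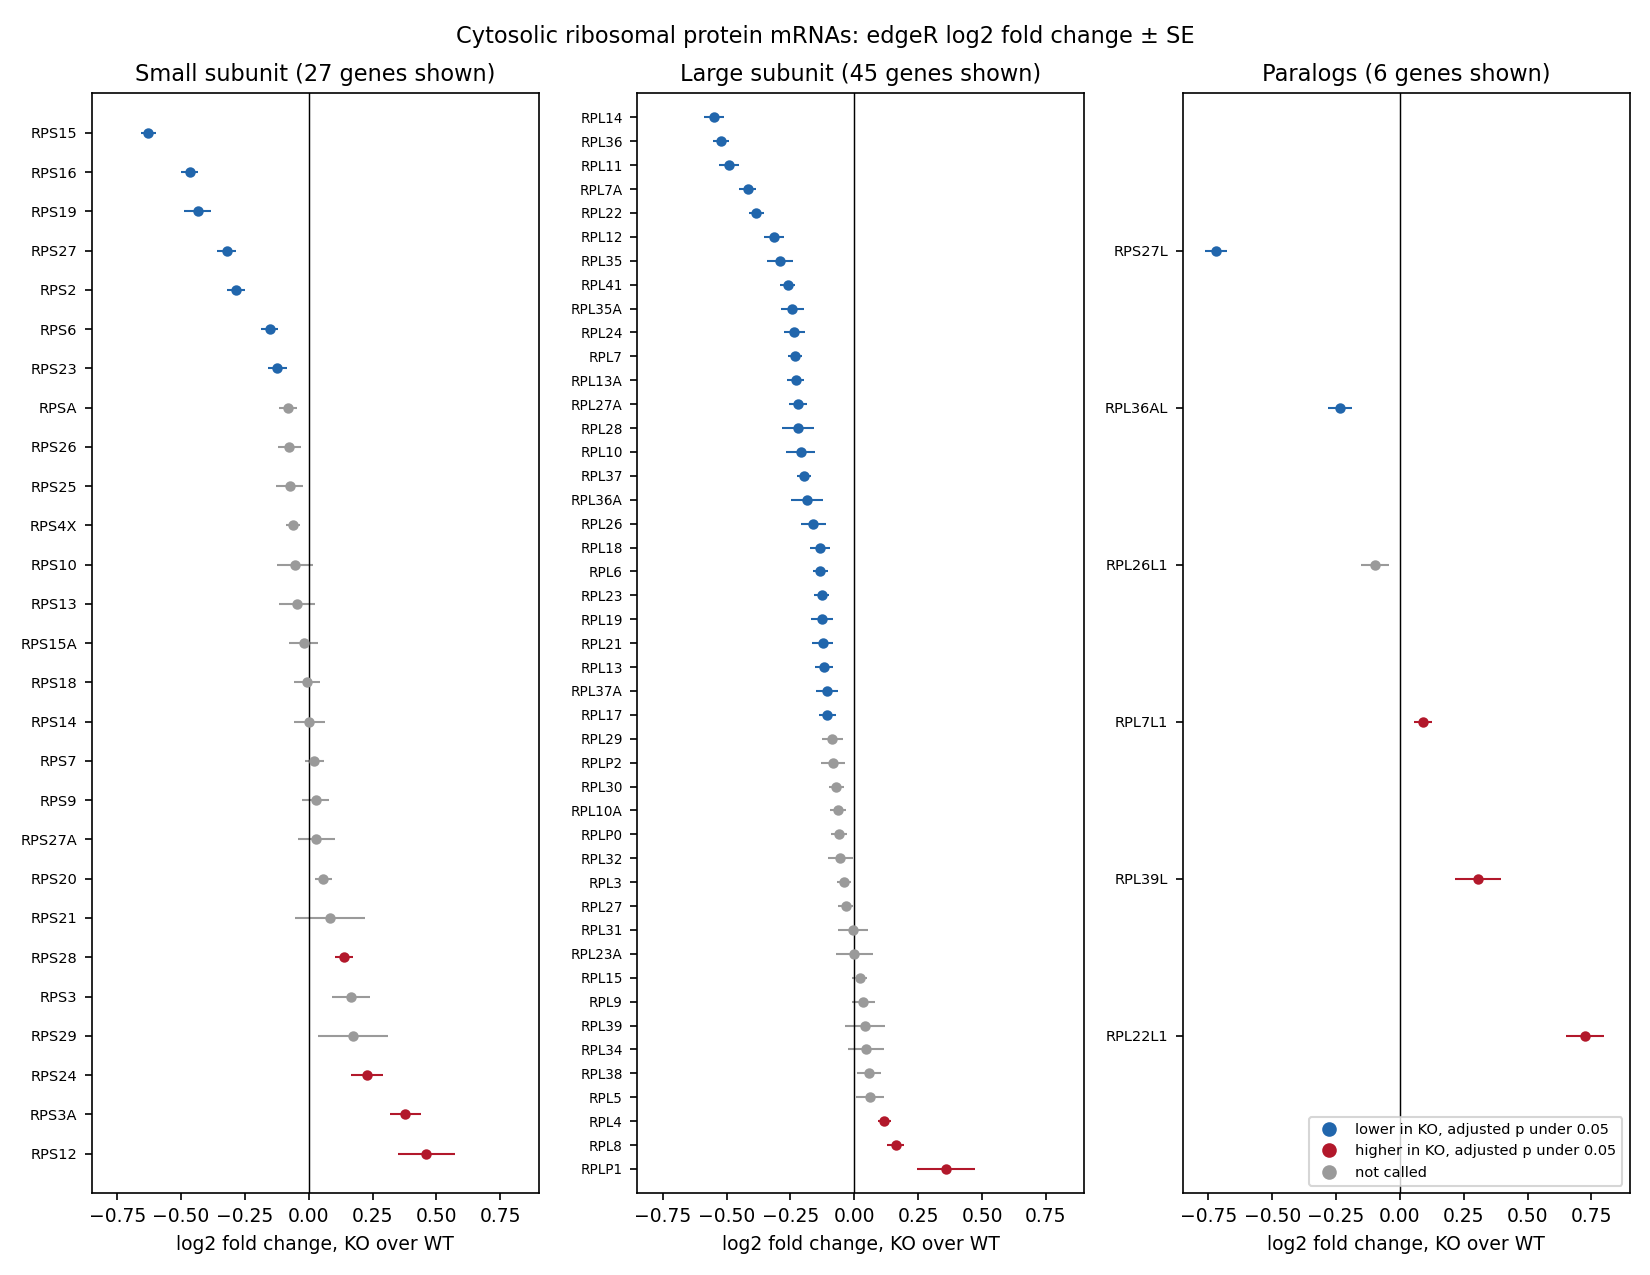
Log2 fold change of KO over WT (x axis) for 78 of the 83 tested members, split into small subunit genes, large subunit genes and paralogs (rows), with points for edgeR estimates and bars for their SE. Of the 78 genes shown, 35 are blue (lower in KO), 10 red (higher in KO) and 33 grey (not called). The range runs from -0.72 for RPS27L to 0.73 for RPL22L1.

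The decreases lay more often among large subunit genes. There 26 of 46 were lower (56.5%) and 3 higher (6.52%), with a median log2 fold change of -0.12. Among small subunit genes 10 of 31 were lower (32.3%) and 5 higher (16.1%), with a median of -0.05. The share lower in the small subunit was near the 30.7% of all genes, of which 29.4% were higher. The small subunit's median was -0.081 without WT replicate 1, 0.016 without WT replicate 2 and -0.0032 without WT replicate 3. The difference between the subunits was not tested.

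RPS15, a protein of the small subunit head, had the largest decrease of any small subunit gene. It had 314, 319 and 319 CPM in KO libraries and 479, 510 and 482 CPM in WT libraries, and the groups lay far apart. Its log2 fold change was -0.63 (SE 0.03, adjusted p = 4.90e-09 by edgeR). RPS16, whose tail reaches towards the transfer RNA in the head, had 248, 247 and 255 CPM in KO and 356, 348 and 331 CPM in WT. All KO libraries were lower, with a log2 fold change of -0.47 (SE 0.03, adjusted p = 1.15e-07 by edgeR). RPS19, a gene mutated in Diamond-Blackfan anaemia, averaged 218 ± 2.15 CPM in KO and 294 ± 26.7 CPM in WT (SD, n = 3 each; log2 fold change -0.44).

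Against these, RPS12 and RPS28 of the head were higher in KO. RPS12, at the beak of the head, had 603, 608 and 616 CPM in KO and 332, 506 and 490 CPM in WT, where WT replicate 1 was far below the others. Its log2 fold change was 0.46 (SE 0.11, adjusted p = 0.0032 by edgeR) and 0.29 without WT replicate 1. RPS28 averaged 233 ± 7.04 CPM in KO and 212 ± 8.07 CPM in WT (SD, n = 3 each). Of its 14 genes the head had 4 lower (28.6%), 3 higher (21.4%) and 7 not called, with a median log2 fold change of 0.01. The shares over all genes were 30.7% lower and 29.4% higher.

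In the body and platform of the small subunit 6 of 17 genes were lower (35.3%) and 2 higher (11.8%). Over all genes 30.7% were lower and 29.4% higher. RPS27 and RPS2 were lower by log2 fold changes of -0.32 and -0.28, and RPS6, the substrate of the S6 kinases, by -0.15. RPS23 fell by 0.12 on the log2 scale.

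RPS3A, a platform protein next to the mRNA exit, had 717, 752 and 748 CPM in KO and 497, 608 and 600 CPM in WT. Every KO library was above every WT library, with a log2 fold change of 0.38 (SE 0.06, adjusted p = 1.40e-04 by edgeR). RPS24, another Diamond-Blackfan anaemia gene, had 452, 482 and 480 CPM in KO and 456, 383 and 368 CPM in WT. Here the groups overlapped, since WT replicate 1 was above 1 KO library. Its log2 fold change was 0.23 (SE 0.06, adjusted p = 0.0072 by edgeR) and the DESeq2 adjusted p was 0.052.

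**Figure D2:**
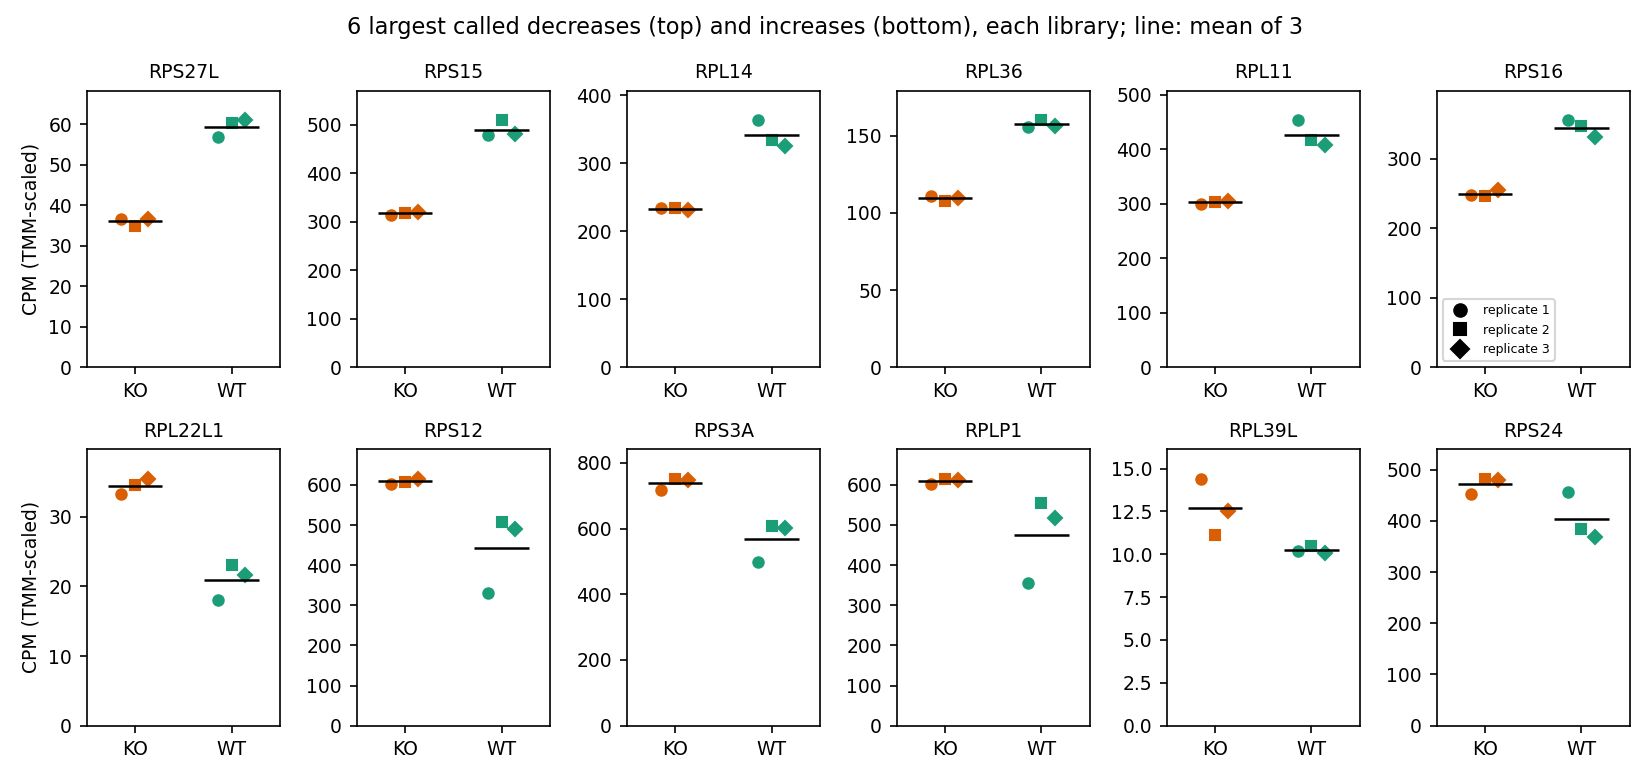
CPM in each library (y axis, from 0) of KO on the left and WT on the right for the 6 members with the most negative called log2 fold change (top) and the 6 with the most positive (bottom), with a line at the mean of 3. In the top row the KO points lie under all WT points. In the bottom row WT replicate 1 (circle) is lowest for RPS12, RPLP1, RPS3A and RPL22L1 and highest for RPS24.

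RPL14, a surface protein of the large subunit, led its decreases with 234, 234 and 232 CPM in KO and 363, 334 and 325 CPM in WT. All KO libraries were lower and nearly equal, with a log2 fold change of -0.55 (SE 0.04, adjusted p = 1.19e-07 by edgeR). RPL36 had 111, 108 and 110 CPM in KO and 156, 160 and 156 CPM in WT, also without overlap. Its log2 fold change was -0.52 (SE 0.03, adjusted p = 2.23e-08 by edgeR). RPL7A averaged 1126 ± 17.5 CPM in KO and 1504 ± 69.4 CPM in WT (SD, n = 3 each; log2 fold change -0.42).

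RPL5 and RPL11, which travel together with the 5S ribosomal RNA as one particle, differed in what their mRNAs did. RPL11 had 299, 304 and 305 CPM in KO and 453, 416 and 407 CPM in WT, so the groups did not overlap (log2 fold change -0.49, SE 0.04, adjusted p = 2.71e-07 by edgeR). RPL5 had 423, 436 and 437 CPM in KO and 367, 439 and 437 CPM in WT and was not called (log2 fold change 0.06, SE 0.06, adjusted p = 0.36 by edgeR). RPL11 counts came to 70.6%, 69.7% and 69.8% of RPL5 counts in the KO libraries, against 123%, 94.9% and 93.0% in the WT libraries. This ratio, which does not depend on the scaling of a library, was lower in every KO library, with the spread in WT coming from replicate 1.

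The stalk that recruits elongation factors is built on RPLP0 and carries pairs of RPLP1 and RPLP2. RPLP0 averaged 1231 ± 25.9 CPM in KO and 1284 ± 38.7 CPM in WT and RPLP2 87.8 ± 0.721 CPM in KO and 93.0 ± 6.71 CPM in WT (SD, n = 3 each), and neither was called. RPLP1 had 602, 615 and 612 CPM in KO and 355, 553 and 517 CPM in WT. Its log2 fold change was 0.36 (SE 0.11, adjusted p = 0.015 by edgeR), 0.19 without WT replicate 1, and DESeq2 did not call it (adjusted p = 0.10). RPLP1 counts were 683%, 696% and 704% of RPLP2 counts in KO and 413%, 557% and 551% in WT, a ratio that was higher in every KO library.

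Of the 8 proteins that form the rim of the exit tunnel, where the new chain leaves and its partners dock, 5 were lower in KO (RPL17, RPL19, RPL22, RPL26 and RPL35) and none was higher. This share of 62.5% lower stood beside 56.5% of large subunit genes and 30.7% of all genes. With the shift shared with chromosome neighbours taken off, 4 of the 8 were lower and none higher. RPL35 averaged 185 ± 3.12 CPM in KO and 227 ± 19.5 CPM in WT (SD, n = 3 each; log2 fold change -0.29). RPL39, which lines the tunnel, RPL31 and RPL23A were not called, with log2 fold changes of 0.04, -0.01 and 0.00. RPL23A had a low estimate, 10.5 CPM per kilobase of its shortest principal transcript in KO and 10.6 in WT. The medians of the tested members on that scale were 414 and 453. RPL22 was the lowest of the group at -0.38 and is described with its paralog.

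The remaining large subunit genes that fell did so by small amounts, from -0.31 for RPL12 to -0.11 for RPL37A. Among them RPL41, the shortest ribosomal protein, averaged 738 ± 2.04 CPM in KO and 884 ± 32.5 CPM in WT (SD, n = 3 each), and RPL10, a late-joining protein of the large subunit, had 518, 533 and 538 CPM in KO and 543, 665 and 631 CPM in WT. Besides RPLP1, RPL8 (log2 fold change 0.16) and RPL4 (0.12) were higher. RPL4, which reaches into the exit tunnel, averaged 1382 ± 9.31 CPM in KO and 1274 ± 21.7 CPM in WT (SD, n = 3 each). RPL3, RPL5, RPL9 and RPL15 were among the 17 that were not called.

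Paralogs showed the extremes of the whole family in both directions. RPL22L1, the paralog of RPL22, had 33.3, 34.6 and 35.5 CPM in KO and 18.0, 23.1 and 21.6 CPM in WT. The KO libraries were all higher, with a log2 fold change of 0.73 (SE 0.07, adjusted p = 3.45e-06 by edgeR) and 0.63 without WT replicate 1. RPL22 had 175, 178 and 173 CPM in KO and 231, 229 and 226 CPM in WT, and all KO libraries were lower (log2 fold change -0.38, SE 0.03, adjusted p = 1.81e-07 by edgeR). In mouse, the Rpl22 protein is known to hold down expression of Rpl22l1. Such a link was not tested here. With the shift shared with chromosome neighbours taken off, RPL22 was no longer called and RPL22L1 was still higher.

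The counts of RPL22L1 came to 19.1%, 19.5% and 20.6% of those of RPL22 in the KO libraries, against 7.83%, 10.1% and 9.57% in the WT libraries. The mean share was 2.15 times as high in KO, and the groups lay well apart.

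RPS27L, the paralog of RPS27, had 36.5, 34.9 and 36.6 CPM in KO and 56.8, 60.3 and 61.0 CPM in WT. Its log2 fold change of -0.72 (SE 0.04, adjusted p = 3.47e-08 by edgeR) was the most negative of all members. Its partner RPS27 had 238, 240 and 248.5 CPM in KO and 319, 293 and 296 CPM in WT, also lower in every KO library. RPS27L counts were 15.3%, 14.6% and 14.7% of RPS27 counts in KO and 17.8%, 20.5% and 20.6% in WT, so the share was lower in every KO library.

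RPL7L1, a paralog of RPL7 known from ribosome assembly, had 186, 191 and 188 CPM in KO and 168, 179 and 183 CPM in WT. It was called higher by a narrow margin (log2 fold change 0.09, adjusted p = 0.040 by edgeR), and was not called without WT replicate 1 (0.05) or by DESeq2 (adjusted p = 0.061). RPL7 averaged 541 ± 6.46 CPM in KO and 636 ± 9.84 CPM in WT (SD, n = 3 each) and was called lower. RPL7L1 counts averaged 34.8% of RPL7 counts in KO and 27.8% in WT, again without overlap.

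RPL39L, a paralog of RPL39 known for its expression in testis, had 14.4, 11.1 and 12.5 CPM in KO and 10.2, 10.5 and 10.1 CPM in WT. It was called higher (log2 fold change 0.31, SE 0.09, adjusted p = 0.011 by edgeR), but its share of RPL39 counts overlapped between groups, at 11.9 ± 1.97% in KO and 9.98 ± 1.46% in WT (SD, n = 3 each). RPL36AL fell together with RPL36A, by log2 fold changes of -0.23 and -0.18. Its share overlapped, at 44.3 ± 2.15% in KO and 45.95 ± 2.33% in WT (SD, n = 3 each). RPL26L1 was not called, and its share of RPL26 counts was 7.69 ± 0.199% in KO and 7.39 ± 0.366% in WT (SD, n = 3 each). RPL3L and RPL10L, known from muscle and testis, had at most 8 counts in any library and were not tested.

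**Figure D3:**
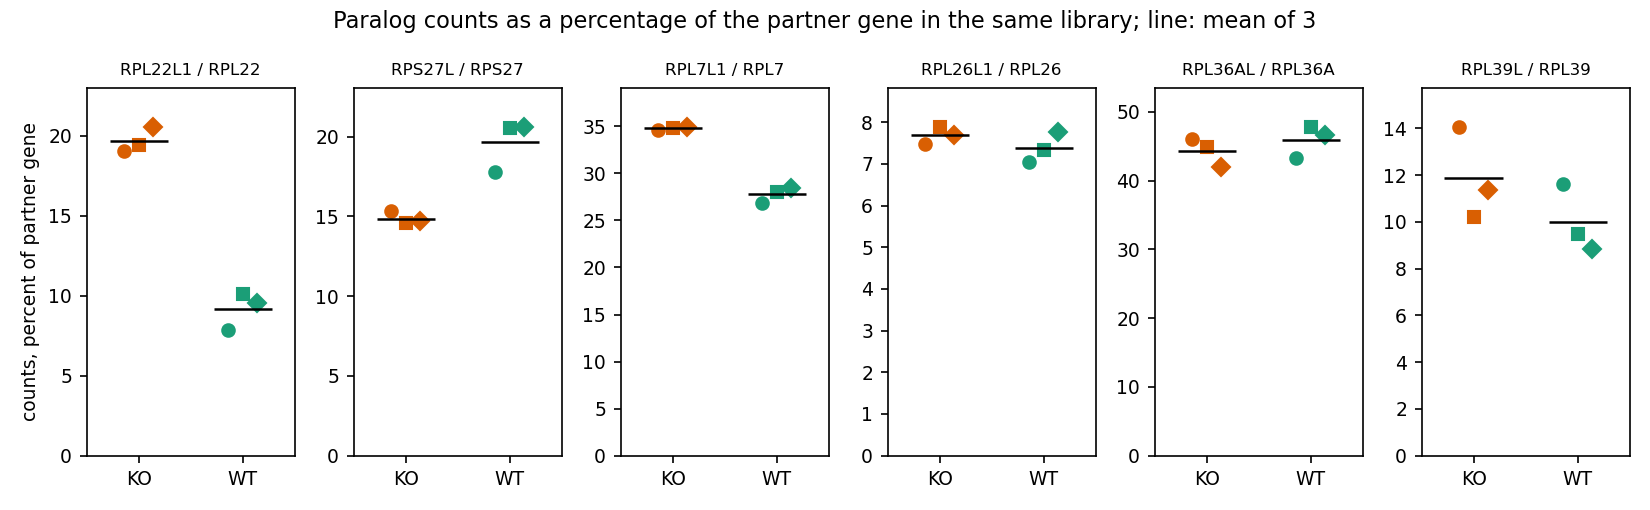
Estimated counts of 6 paralogs as a percentage of the partner gene's counts in the same library (y axis, from 0), KO on the left and WT on the right, with a line at the mean of 3. The shares of RPL22L1 and RPL7L1 are higher and that of RPS27L lower in every KO library. The other 3 pairs overlap.

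Members tended to move with the genes around them on the chromosome. The local shift of a gene was taken as the median log2 fold change of the 25 tested genes on each side of it, the gene itself left out, with positions from GENCODE release 29 on GRCh38. Across the 83 members, which share the 6 libraries, log2 fold change and local shift had a Pearson r of 0.56 and a Spearman rho of 0.46. Across 13222 placed genes r was 0.27 and rho 0.40.

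On chromosome 1, RPL11, RPL22 and RPS27 were lower, and the local shifts of RPL11 and RPL22 were -0.24 and -0.32. On chromosome 19 there were 12 members, of which 9 were lower and 1, RPS28, was higher. RPL36 there sat among genes with a median of -0.53, RPS15 among genes at -0.42 and RPS16 among genes at -0.40, while RPS28 sat among genes at 0.35. Of 4 members on chromosome 15, 3 were higher and 1, RPS27L, was lower. RPL4 and RPLP1 were among the higher ones, with local shifts of 0.29 and 0.28. On chromosome 9 all 4 members, RPL7A, RPL12, RPL35 and RPS6, were lower, and the median of their local shifts was -0.05. Over all genes tested 30.7% were lower and 29.4% higher. The shares among all genes of each chromosome were not worked out.

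With the local shift taken off, 47 members were lower and 7 higher, with a median of -0.12. In that fit 27.8% of all genes were lower and 26.8% higher. Of the 38 decreases 33 were kept and 5 were no longer called (RPL10, RPL22, RPL36, RPL37A and RPS16). RPL36 then stood at 0.01, RPS16 at -0.06 and RPS15 at -0.20, where it was still called. RPL14 at -0.49, RPS27L at -0.59 and RPL11 at -0.25 were also still lower. RPS27, whose neighbours were higher in KO by a median of 0.26, stood at -0.59.

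Of the 11 increases only RPL22L1 (0.80) and RPL39L (0.55) were kept in that fit. RPL4, RPS24 and RPS28 were then called lower, and 6 were not called, among them RPL7L1, RPL8, RPLP1, RPS12 and RPS3A, the last at 0.01. These calls depended on the window. With 50 genes a side RPS24 (-0.21) was called lower, and RPL4 (-0.056) and RPS28 (-0.082) were not called. Among members not called at first, 11 were then lower and 5 (RPL3, RPL5, RPL38, RPS9 and RPS20) higher. The cause of the local shifts was not tested.

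**Figure D4:**
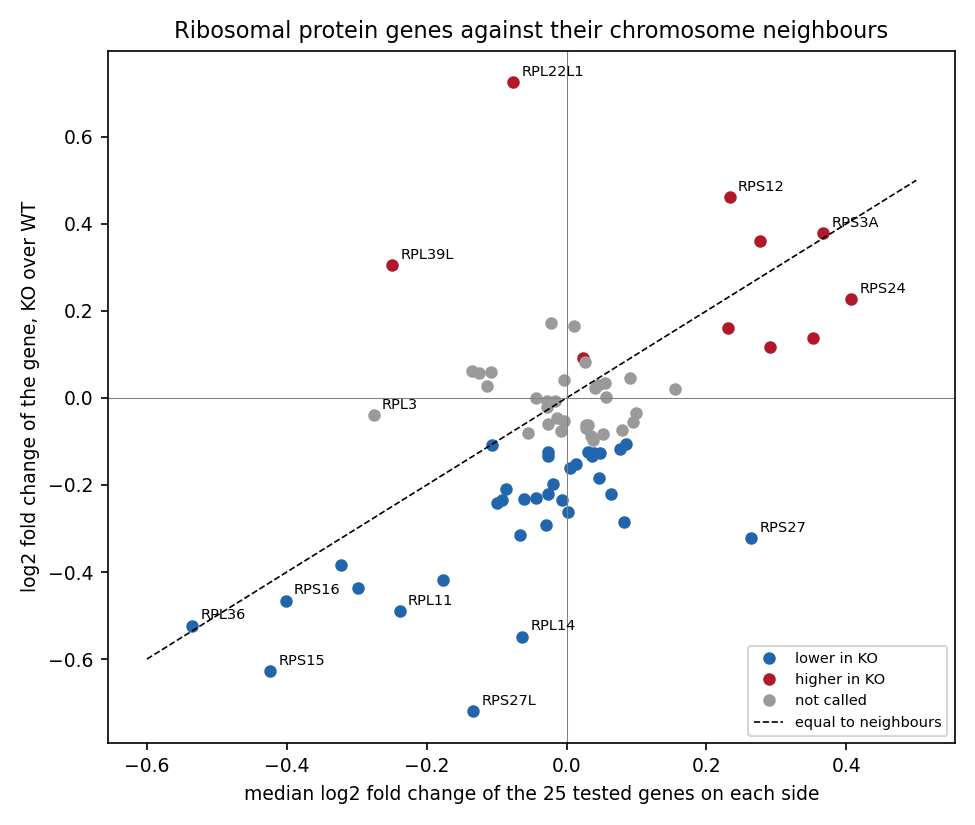
Log2 fold change of 78 of the 83 tested members (y axis) against the median log2 fold change of its 25 tested neighbours on each side (x axis), coloured by call, with a dashed line where the 2 are equal. RPL36 and RPS3A lie close to the line, RPL22L1 and RPL39L far above it, and RPS27L, RPL14 and RPS27 below it.

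WT replicate 1 held unusual levels of several members. In 13 of 83 members it was below the mean of WT replicates 2 and 3 by a factor of more than 1.2, and in 2 above by that factor. Over all 13265 tested genes 842 were below and 842 above. The lowest ratios were those of RPS29 (0.603), RPS21 (0.605), RPLP1 (0.664) and RPS12 (0.666). RPS21 had 98.9, 97.0 and 103 CPM in KO and 65.7, 110 and 107 CPM in WT, and RPS29 48.5, 48.1 and 49.1 CPM in KO and 30.0, 50.3 and 49.4 CPM in WT. In both genes every KO library lay above WT replicate 1 and below WT replicates 2 and 3.

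Without WT replicate 1, 55 members were lower and 13 higher, with a median of -0.09, beside 32.5% of all genes lower and 30.8% higher. All 38 decreases and 10 of the 11 increases were kept, RPL7L1 being the exception. A further 17 members were then called lower, among them RPS21 (-0.12), RPS14 (-0.08) and RPS27A (-0.08), whose estimates had been 0.08, 0.00 and 0.03 with all libraries. RPS3 and RPL15 were then called higher, by 0.05 and 0.04. What set WT replicate 1 apart was not tested.

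**Figure D5:**
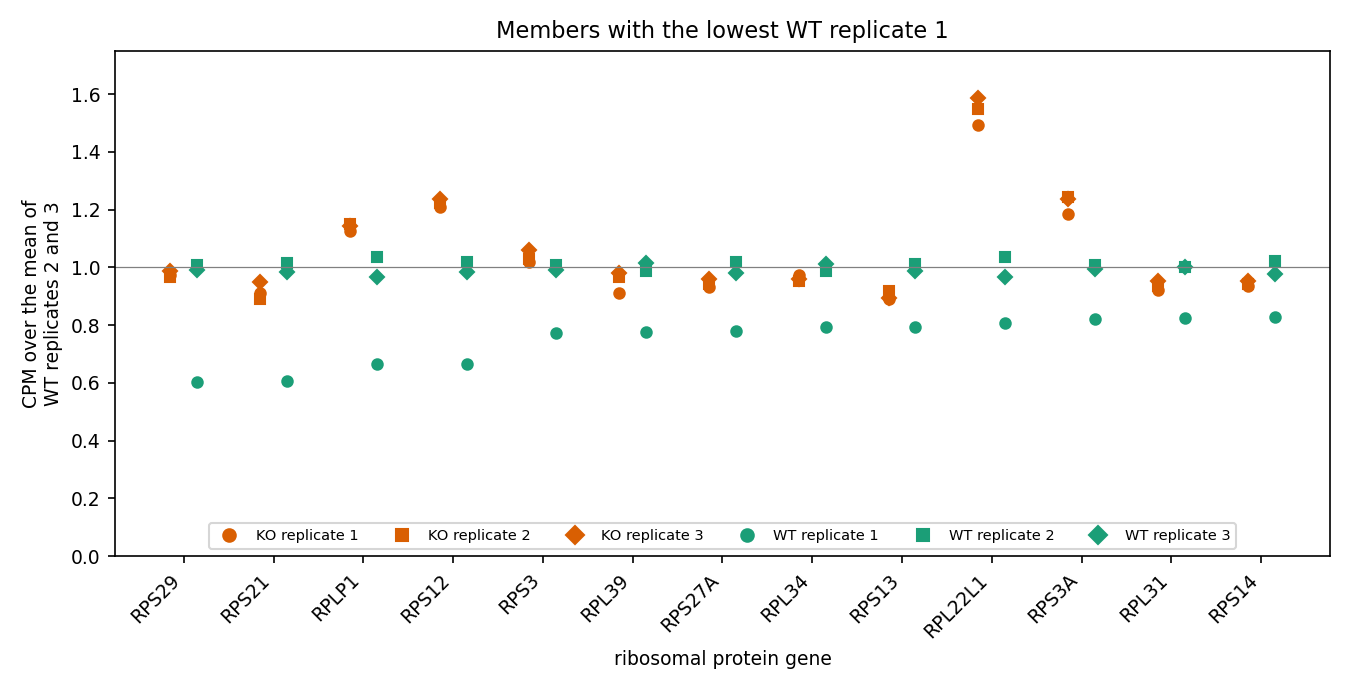
CPM of each library over the mean of WT replicates 2 and 3 (y axis, from 0) for the 13 members in which WT replicate 1 (green circle) was lowest against that mean, KO libraries on the left and WT libraries on the right of each gene. The ratio of WT replicate 1 is 0.603 for RPS29, and for RPL22L1, RPS3A, RPS12 and RPLP1 the KO libraries also lie above WT replicates 2 and 3.

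Levels between members can be compared only per length, and the order depended on the length used. With the length of all annotated exons together, the 83 tested members had a median of 98.1 CPM per kilobase in KO and 107 in WT. RPL41 (678 in KO and 813 in WT), RPS2 (584 in KO and 712 in WT) and RPL7A (502 in KO and 671 in WT) were the 3 highest in WT on this scale, and RPS12 came first in KO at 794. With the length of the longest transcript these 3 were also the highest in WT, RPL7A first. RPL3L and RPL10L were at or near 0. RPS29, RPL23A and RPS27L were the lowest of the tested members on this scale in WT, RPS29 at 4.93 CPM per kilobase of all exons in KO and 4.39 in WT. With the shortest principal transcript RPS29 stood at 164 CPM per kilobase in KO and 146 in WT. It then had rank 68 of 83 in KO and 70 of 83 in WT, so its low place came in part from the length. RPL23A (10.5 in KO and 10.6 in WT) and RPS10 (26.3 in KO and 27.3 in WT) were still near the bottom on that scale. The order of the members was nearly the same in both groups, with a Spearman rho of 0.99 over the 83 genes on the exon scale.

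Reads of ribosomal protein genes are hard to place, since many processed copies of them lie across the genome, and 16 members had estimates that were not whole numbers (among them RPL10, RPL15, RPL17, RPL26, RPL27A, RPL32, RPL36, RPL36A, RPS10, RPS14, RPS15A, RPS20, RPS27L, RPS28 and RPSA). Their values are uncertain in level. Of these 7 were lower (43.8%) and 2 higher (12.5%), with a median of -0.07. Of the 67 tested members with whole numbers 31 were lower (46.3%) and 9 higher (13.4%), with a median of -0.08. Over all genes tested 30.7% were lower and 29.4% higher. Genes that read through from a member into the next gene have rows of their own outside the name rule: RPL17-C18orf32 held 322 to 450 counts in KO and 349 to 456 in WT, RPS10-NUDT3 27.8 to 73.1 in KO and 84.2 to 110 in WT, and RPL36A-HNRNPH2 0 to 119 in KO and 30.7 to 114 in WT.

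Outside the name rule, RACK1, a scaffold on the small subunit head, was lower (log2 fold change -0.14). FAU, which encodes RPS30 fused to a ubiquitin-like protein, was not called (0.07).

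A list of elongation factors and other TOP mRNAs had 4 of 14 genes lower and 4 higher, beside 30.7% lower and 29.4% higher over all genes. EEF2, which moves the ribosome along, was lower (log2 fold change -0.55) and stood at -0.01 with the local shift taken off. EEF1B2, an exchange factor for elongation, was also lower (-0.16), while NAP1L1 (0.15) and EEF1D (0.14) were higher. With the local shift taken off EEF1B2 (-0.11) and NAP1L1 (0.20) were still called, and EEF1D (-0.05) was not. Among 12 regulators of TOP mRNAs 3 were lower and 4 higher. MTOR itself was lower (-0.40) and so was EIF4EBP1 (-0.26), while EIF4EBP2 (0.62), a repressor of cap-dependent translation, and RHEB (0.40), the activator of mTOR, were higher. With the local shift taken off MTOR (-0.10) and RHEB (0.28) were still called, and EIF4EBP1 (0.09) and EIF4EBP2 (0.04) were not.

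Genes for making ribosomes were called in both directions. Against 30.7% lower and 29.4% higher over all genes, the share lower was near that of all genes among small subunit assembly factors. Of 25 large subunit assembly factors 14 were lower and 4 higher, with a median log2 fold change of -0.13. NOP2, an rRNA methyltransferase, had -0.83 and PES1 -0.42, while DDX21 (0.45) and BCCIP (0.20) were higher. Of 36 small subunit assembly factors 11 were lower and 4 higher, with a median of -0.05. HEATR1 (-0.62) and NOB1 (-0.24), which processes the rRNA of the small subunit, were lower, and RRP12 (0.36) and LTV1 (0.28) were higher. Of 9 snoRNP proteins, which guide the modification of rRNA, 6 were lower and none higher, NOLC1 at -0.71 and FBL, the rRNA methyltransferase fibrillarin, at -0.63.

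RNA polymerase I and its factors had 4 of 15 genes lower and 3 higher, beside 30.7% lower and 29.4% higher over all genes. TAF1A (-0.60) and POLR1E (-0.52) were foremost among the decreases, and POLR1F (0.28) and TAF1B (0.24) among the increases. Of 6 genes that watch over free ribosomal proteins or stalled ribosomes, MDM2 among them, only ZNF598 was called, at -0.13. With the local shift taken off, DDX21 (-0.04), RRP12 (0.01), LTV1 (0.0039) and POLR1F (0.10) were not called, and BCCIP was called lower (-0.20). NOP2 (-0.50), HEATR1 (-0.20), FBL (-0.23) and NOLC1 (-1.10) were still lower.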

How the data were processed

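The deposited values are estimated counts of each gene in the 6 libraries, not scaled. The tools named per the submitters' processing notes, without their roles, are HISAT2, Bowtie2 2.2.8, DESeq2 and StringTie 1.3.1. Genome build, annotation and strand setting: not given in the sources used here, so reads of overlapping antisense genes cannot be told apart. Per the labels, RNA was enriched on oligo(dT) beads. Estimates were rounded and fitted over all genes with edgeR 4.0.16 in R 4.3.3 (TMM scaling, filterByExpr with a minimum count of 10, quasi-likelihood F test, Benjamini-Hochberg adjustment over 13265 genes, threshold 0.05). The fit was tested on simulated data. CPM and log2 fold changes come from that fit. Its SE was worked out as the absolute log2 fold change over the square root of the F statistic. The local shift entered as a fixed offset of the KO libraries, so the p-values of that fit leave out the shift's own error. DESeq2 1.42.0, limma 3.58.1, other scalings, filters and library removals were alternatives.

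Groups and replicate numbers came from sample titles. Deviations of same-numbered libraries correlated at 0.02, -0.04 and 0.02, so numbers were not treated as pairs. IDs were matched to GENCODE release 29 (all 85 members) and symbols to RefSeq promoters on GRCh38.p14, running from 250 bases before to 50 after the start (68 members). Values per library go to UBE2S, the 6 called members with the lowest and the highest log2 fold change, the highest and lowest per length, paralog pairs, the 5S particle and the stalk. In each gene list up to 2 called genes per direction are named, beside a few others. Members and lists were chosen with earlier results of these data known. A few genes are counted in the totals but not reported by name here.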

Additional observations from a re-analysis of the deposited data

How the results depend on the processing

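Under other scalings, filters, limma-voom, DESeq2 and single-library removals, the members' counts and medians stayed within 1.5 times or 1 SD, with the median log2 fold change of all members under 0 throughout (the small subunit's ran from -0.081 to 0.016) and, over the removals, 30 to 55 lower and 9 to 13 higher. With the replicate block 37 were lower and 12 higher; the numbers did not pair the libraries. Required to exceed a fold of 1.2, 10 were lower and 2 higher. Of all genes 30.7% were lower and 29.4% higher in the reported fit, and 32.5% and 30.8% without WT replicate 1. The shares of all genes were not worked out for the fold of 1.2, the replicate block or the other removals. With the neighbourhood shift of 10, 25 or 50 genes a side taken off, 6, 7 and 6 were higher, and the median was -0.13 with 10 and -0.12 with 25. RPL11, RPL14, RPL7A, RPS15 and RPS27L (lower) and RPL22L1 (higher) were among the members called in all 19 other fits. In the 6 library removals 29 of 38 decreases and 8 of 11 increases were called each time.

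Among differences called in the reported fit or in the alternative, the sign turned in 12 of the 78 members reported by name; signs of differences called in neither are not listed. With 10 neighbours a side, RPL15 was -0.13, RPL3 0.26, RPL4 -0.21, RPL8 -0.16, RPS24 -0.25, RPS28 -0.14 and RPS7 -0.12. With 25 a side, RPL15 was -0.13, RPL3 0.24, RPL36 0.012, RPL4 -0.17, RPL8 -0.070, RPS24 -0.18 and RPS28 -0.22. With 50 a side, RPL3 was 0.25, RPL4 -0.056, RPL8 -0.064, RPS24 -0.21, RPS28 -0.082 and RPS3A -0.00082. Over the library removals RPS14 ran from -0.084 (without WT replicate 1) to 0.063, RPS21 from -0.12 to 0.20 and RPS27A from -0.081 to 0.10. These follow from the offset or the library left out; the underlying cause was not tested. Depth limits only RPL3L and RPL10L.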
